A study of Mus musculus with 10 samples.

Results

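Of the series' 10 RNA-seq libraries of sorted mouse hippocampal material, 7 fell into a set with very much RNA of Mbp and a set with little, and these sets are described here. Mbp encodes myelin basic protein, the cytoplasmic protein that holds adjacent membranes of the myelin sheath together. The libraries were chosen by 1 measured value: those titled mock, neg and pos were divided by the percent of their total raw counts on Mbp, at a threshold of 15%. There were 4 libraries at or above the threshold, called Mbp-high, and 3 below it, called Mbp-low. The series holds 3 further libraries, titled neu, which the division did not use.

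All mice were males, 5 weeks of age, with activated hippocampal cells marked by an EYFP-tagged channelrhodopsin (ChR2). AAV9 viruses delivered it, with the c-Fos promoter driving the tTA transactivator that doxycycline blocks, so the label marked cells that had been active, of whatever type expressed the viruses. The mock mice stayed in the home cage (an untagged control in the study's statistics section, although the label for that group names the transgene), the aversive (neg) mice received 4 foot shocks of 1.5 mA for 2 s, and the appetitive (pos) mice met a female for 1 h. Neutral (neu) mice visited the same conditioning cage without either stimulus. Hippocampi were dissociated, cleared of debris and red blood cells, and sorted for EYFP. The labels state that 8 mice were pooled for each condition, and nothing says that libraries of a condition came from separate mice. The study's methods give fewer mice for the mock group than it has libraries, in which case mock libraries would share mice, so p-values measure only the spread between these libraries, which may be technical. The neutral libraries were made with another kit description and sequenced as paired 100 bp reads, where the other libraries were sequenced as single 40 bp reads.

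Myelin is membrane that an oligodendrocyte wraps around an axon, dense in cholesterol and galactolipids. Its proteins reach it by different routes. Membrane-spanning proteins such as Mag and Mog are made at the endoplasmic reticulum and carried to the sheath in vesicles, while the mRNAs of Mbp and Mobp are packed into granules, carried along microtubules and translated at the sheath.

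The Mbp-high libraries comprised mock 1 with 22.8% of its counts on Mbp, mock 2 with 20.4%, aversive 1 with 23.7% and appetitive 1 with 30.8%. The Mbp-low libraries were mock 3 with 3.37%, aversive 3 with 1.09% and appetitive 2 with 0.983%. The threshold fell in a wide gap, between mock 2 as the nearest library above it and mock 3 as the nearest below. Counting error moved no share by more than 0.0175 percentage points (half-width of the 95% Wilson interval, which covers counting error only). The neutral libraries had 1.84%, 0.981% and 0.601%. Each treatment had libraries in both sets, but the replicate numbers did not mix evenly: every library numbered 1 was Mbp-high and both libraries numbered 3 were Mbp-low, so a step shared by same-numbered libraries and the Mbp level cannot be told apart, except through number 2, which was Mbp-high in mock and Mbp-low in the appetitive group.

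**Figure D1:**
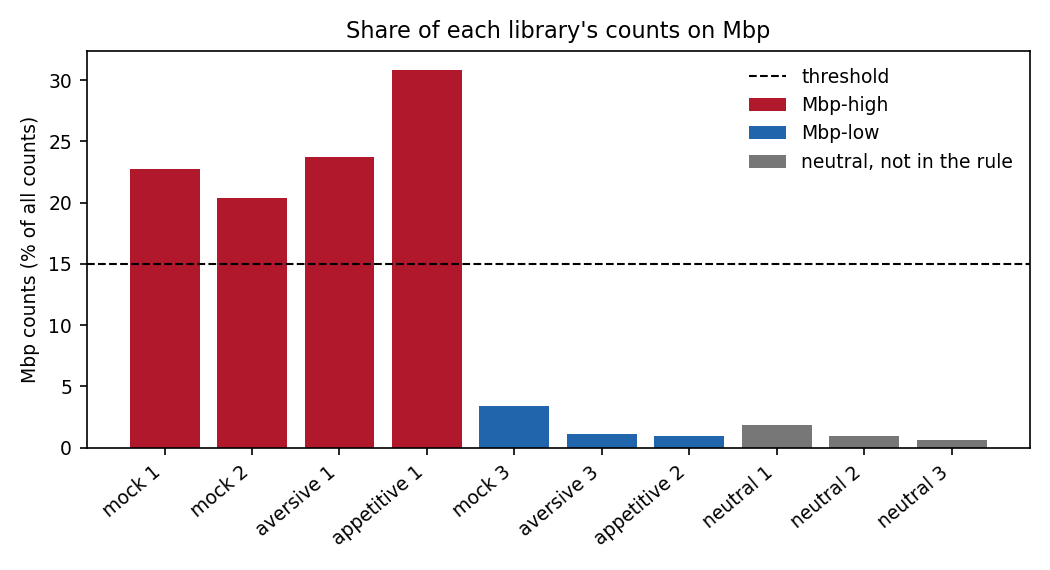
Percent of all counts on Mbp (y axis) in each of the 10 libraries (bars), with the threshold at 15% as a dashed line. The 4 Mbp-high libraries lie between 20.4% and 30.8%, and the 6 other libraries, neutral ones included, between 0.601% and 3.37%.

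Total counts ran from 16968588 to 49880042 in the 7 libraries. All levels given next are CPM (counts scaled to a common library size) of the genes other than Mbp, scaled by TMM with factors from 0.62 to 1.54, and 3 counts stand for 0.0405 to 0.263 CPM. Because Mbp's own level made the sets, a difference in another gene says only that the gene's level went with that of Mbp. Fewer cells of a type and less RNA per cell cannot be told apart in such bulk libraries.

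The sets were not simply rich and poor in myelin RNA. A small number of genes of the sheath followed Mbp closely, and most did not. Mobp, a basic protein of the major dense line, had 97160 CPM in mock 1, 68180 in mock 2, 79030 in aversive 1 and 140300 in appetitive 1, against 9206 in mock 3, 2760 in aversive 3 and 4877 in appetitive 2. The sets were far apart, and the fitted log2 difference was 4.13 (SE 0.41, adjusted p = 0.0586, edgeR's quasi-likelihood test with Benjamini-Hochberg adjustment). Plekhb1, a membrane protein with a pleckstrin homology domain, had 23750, 17590, 22340 and 46540 CPM in the Mbp-high libraries, in the same order, and 1691, 921.5 and 2010 CPM in the Mbp-low ones. Its log2 difference of 4.17 (SE 0.31, adjusted p = 0.0106 by edgeR) passed the threshold of 0.05.

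Most of the other genes of the sheath behaved otherwise. Mag, an adhesion protein that faces the axon, had 474.6, 768.4, 1570 and 1418 CPM in the Mbp-high libraries and 1082, 1012 and 3454 CPM in the Mbp-low ones, and its highest level lay in appetitive 2, the library with the smallest share of Mbp among the 7. The sets overlapped, and the log2 difference was -0.53 (SE 0.44, adjusted p = 0.959 by edgeR). The enzyme Cnp, a phosphodiesterase of the non-compact sheath, showed a log2 difference of -0.09, the lipid raft protein Mal one of -0.55, and the surface protein Mog one of -1.12. None of these passed the test. For Mog the levels were 265.0, 339.0, 627.8 and 615.5 CPM in the Mbp-high libraries and 462.4, 822.5 and 3640 CPM in the Mbp-low ones, which overlapped.

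Cldn11, the claudin that seals the sheath's tight junctions, went the other way. Its levels were 40.5, 33.9, 44.3 and 179.6 CPM in the Mbp-high libraries and 171.3, 415.2 and 900.2 CPM in the Mbp-low libraries. The sets overlapped by a narrow margin, at appetitive 1 and mock 3. The log2 difference of -2.55 (SE 0.49) was the one with the smallest p among all lower genes and did not pass the threshold (adjusted p = 0.615 by edgeR). It was negative within each treatment, at -2.21 in mock, -3.23 in aversive and -2.33 in appetitive libraries.

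Of the 18 genes in the list of the myelin sheath, 17 passed the filter on low counts. They were divided into 6 with a positive and 11 with a negative log2 difference, with a median of -0.105, where the median of all 17208 tested genes was -0.343. Only Plekhb1 was called. The Mbp-high libraries lay above all Mbp-low libraries for 4 of the 17, Mobp, Plekhb1, Gpm6b and Ndrg1, and below all of them for 0, where 2.78% of all tested genes lay wholly above and 4.1% wholly below. Gpm6b, a membrane glycoprotein of neurons and glia, had 3036 to 6917 CPM against 910.1 to 2799 CPM, a log2 difference of 1.62 (SE 0.32, adjusted p = 0.66 by edgeR). The sign of the list's median changed in 5 of 20 alternative settings. Summed over its 18 genes, the list held 11.0% to 14.9% of the counts other than Mbp in the Mbp-high libraries and 2.77% to 10.4% in the Mbp-low ones. In the Mbp-high libraries Mobp alone gave the greater part of it.

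**Figure D2:**
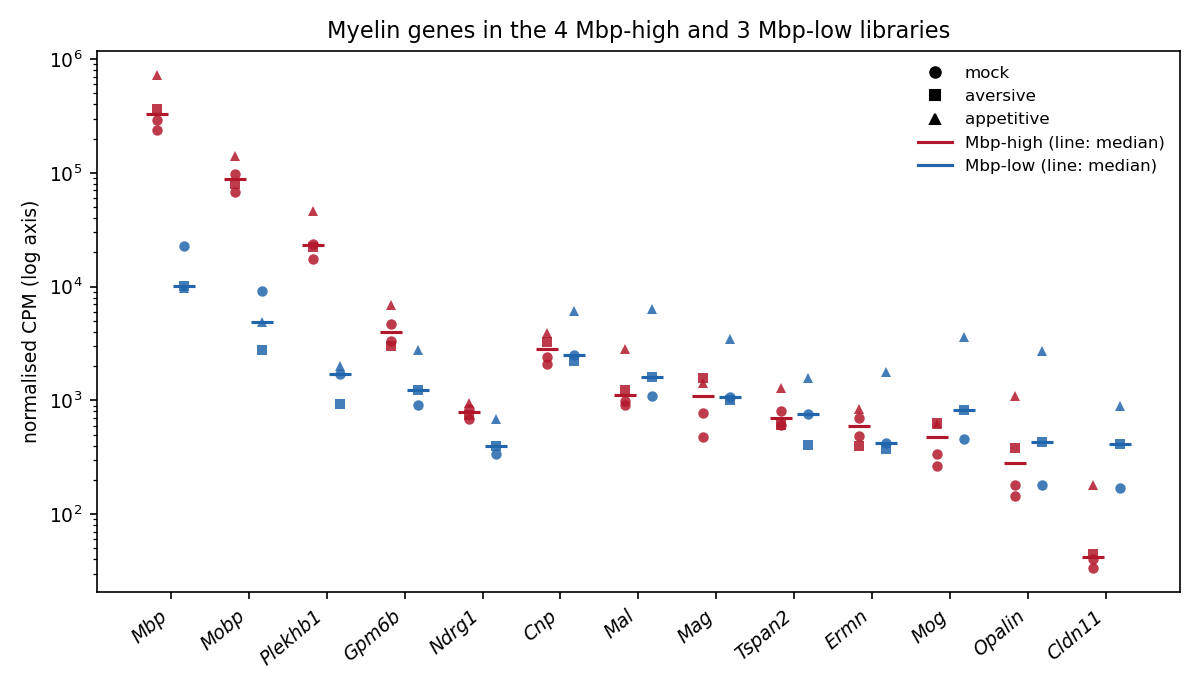
Normalised CPM on a log axis (y) of Mbp and 12 genes of the myelin sheath list (x) in the 4 Mbp-high (red) and 3 Mbp-low (blue) libraries, with symbols for the treatment and lines at the medians. Mobp and Plekhb1 part like Mbp, the points of Cnp to Opalin overlap, and Cldn11 is lower in most Mbp-high libraries.

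Dividing 1 gene's counts by another's within a library removes the scaling between libraries altogether. For every Mag count there were 615.5, 307.3, 232.3 and 507.6 Mbp counts in the Mbp-high libraries and 20.99, 10.04 and 2.80 in the Mbp-low ones. Counts were not corrected for gene length here, so such a ratio compares libraries and not the levels of the genes. Over all 10 libraries the ratio of Mag to Mbp spanned 220-fold from lowest to highest. The ratio of Mobp to Mbp spanned 2.59-fold, from 0.195 to 0.505, and that of Plekhb1 to Mbp 3.40-fold. The neutral libraries, which the division did not use, had 167.0, 5.88 and 60.4 Mbp counts per Mag count, so neutral 1 and neutral 3 lay between the sets and neutral 2 within the Mbp-low range.

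The other genes of the sheath list varied less against Mag than against Mbp, by amounts that ran from small to large. The ratio of Mal to Mag spanned 2.52-fold over the 10 libraries and that of Mog to Mag 2.64-fold, against 211.5-fold and 440.3-fold for their ratios to Mbp. Cnp spanned 2.92-fold to Mag and 116-fold to Mbp, and plasmolipin (Pllp), a tetraspan protein of myelin, 2.04-fold and 404.3-fold. Of 15 sheath genes compared, 2 had a steadier ratio to Mbp (Mobp and Plekhb1) and 13 a steadier ratio to Mag, by the SD of the log2 ratio. All ratios to a gene share that gene's counts, and Mag and Mbp were chosen as denominators after their values were seen, so these are descriptions with no test. Of the 13, Cldn11 and the tetraspanin Cd9 spanned 28.6-fold and 29.4-fold to Mag, Ndrg1 21.5-fold, Gpm6b 18.2-fold, Opalin 12.3-fold and the peripheral myelin protein Pmp22 10.1-fold, and so were steady to neither gene.

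**Figure D3:**
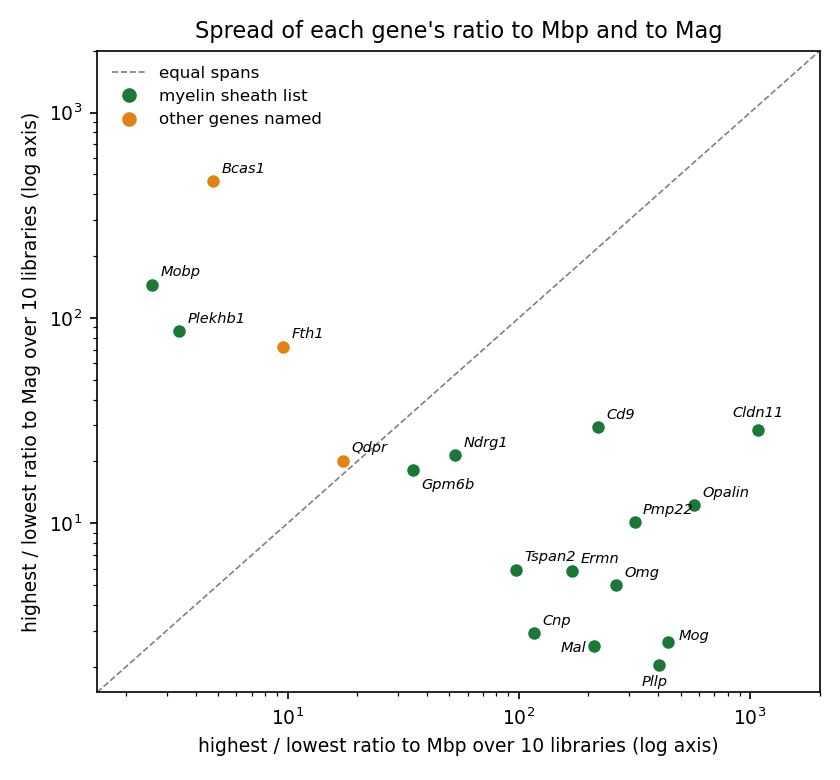
For each gene, the highest over the lowest ratio of its counts to Mbp counts (x, log axis) and to Mag counts (y, log axis) across the 10 libraries; the dashed line marks equal spans. Mobp (2.59-fold to Mbp), Plekhb1, Bcas1 and Fth1 lie in the upper left, and Mal, Cnp, Mog and most of the sheath list in the lower right.

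The difference between Mobp, Plekhb1 and Cldn11 is the clearest within the sheath list, and the sequences just before their starts are shown for that reason. Each line gives the 250 bases before the start of transcription in RefSeq (GRCm38.p6), on the gene's strand, 5′ to 3′. Capitals mark ACAAAG or ACAATG, or their reverse complements CTTTGT and CATTGT, short words bound by SOX-family factors such as Sox10, which oligodendrocytes need to make myelin. The Mobp window lies at chr9:120149492-120149741 on the plus strand, the Plekhb1 window at chr7:100662395-100662644 on the minus strand, and the Cldn11 window at chr3:31149670-31149919 on the plus strand. Plekhb1 has 2 windows in RefSeq, of which 1 is shown.
Mobp: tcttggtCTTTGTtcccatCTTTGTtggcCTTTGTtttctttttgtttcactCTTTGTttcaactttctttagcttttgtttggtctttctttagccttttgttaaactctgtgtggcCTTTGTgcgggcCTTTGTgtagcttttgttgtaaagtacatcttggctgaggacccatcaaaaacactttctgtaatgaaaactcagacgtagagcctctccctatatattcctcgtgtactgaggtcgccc
Plekhb1: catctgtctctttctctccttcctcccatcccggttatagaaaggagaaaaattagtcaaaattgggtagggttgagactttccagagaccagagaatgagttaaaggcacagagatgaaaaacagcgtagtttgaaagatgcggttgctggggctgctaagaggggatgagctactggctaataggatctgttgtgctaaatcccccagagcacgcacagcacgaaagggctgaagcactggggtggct
Cldn11: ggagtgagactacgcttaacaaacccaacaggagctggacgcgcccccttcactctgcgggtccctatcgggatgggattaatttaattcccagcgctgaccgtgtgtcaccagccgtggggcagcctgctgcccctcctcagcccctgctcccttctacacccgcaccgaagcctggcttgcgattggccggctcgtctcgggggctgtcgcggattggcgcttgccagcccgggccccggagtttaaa
The Mobp window held 6 matches, all as CTTTGT on the shown strand, the first of them 243 bases before the start, while those of Plekhb1 and Cldn11 held 0. Of 32851 windows of this length, 8292 (25.2%) held at least 1 match. A match is a run of letters and not a measured binding site.

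Across the 17208 genes tested, edgeR called 2 genes at an adjusted p under 0.05, both higher in the Mbp-high libraries (0.0116% of the genes tested), and 0 lower (0.0%). At an unadjusted p under 0.05 there were 341 higher genes (1.98%) and 329 lower genes (1.91%), and the 2 called genes depended on the libraries: without mock 3, aversive 3, appetitive 1 or appetitive 2 the count was 0, without aversive 1 it was 1, and without mock 1 or mock 2 it was 8 or 12. The spread of libraries within the sets was wide, with a biological coefficient of variation of 115%. DESeq2's Wald test called 153 higher and 714 lower genes on the same counts. The 4 Mbp-high libraries lay wholly above the 3 Mbp-low ones for 478 genes (2.78%) and wholly below for 705 (4.1%). Of the 35 ways to place 4 and 3 libraries, 1 puts the Mbp-high ones wholly above and 1 wholly below. The share of higher genes was near that 1 in 35, so lying wholly above does not by itself tie a gene to Mbp.

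The called genes were Plekhb1 and Fth1. Fth1, the heavy chain of ferritin, which stores iron and oxidises it on entry, rose from 4697, 9272 and 12180 CPM in mock 3, aversive 3 and appetitive 2 to 38490, 46130, 57830 and 148800 CPM in mock 1, mock 2, aversive 1 and appetitive 1. The sets did not overlap, the log2 difference was 3.14 (SE 0.23, adjusted p = 0.0106 by edgeR), and the level was 8.19 and 9.82 times higher in mock 1 and mock 2 than in mock 3, 6.24 times higher in aversive 1 than in aversive 3 and 12.2 times higher in appetitive 1 than in appetitive 2. Fth1 has processed copies in the genome, so its counts carry some uncertainty. The light chain Ftl1 was counted at 6.42 to 62.2 CPM in the Mbp-high and 30.8 to 61.3 CPM in the Mbp-low libraries, which overlapped. Its counts were few, at 146 in mock 1 where Fth1 had 875529, and it overlaps a gene on the other strand in counts that ignored strand. The level of Ftl1 is therefore uncertain as well. Transferrin (Trf), which carries iron and is made in oligodendrocytes, showed a log2 difference of -0.83 (SE 0.47). Ftl1 and Trf were chosen after their values were seen.

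Another 10 genes formed the rest of the 12 with the smallest p in the higher direction, and none of them passed the threshold (adjusted p from 0.0586 to 0.365, edgeR). For all 12 the Mbp-high libraries lay wholly above the Mbp-low ones. Besides Mobp they held Qdpr, which regenerates the tetrahydrobiopterin cofactor, at 3832 to 15330 against 581.1 to 2721 CPM (log2 difference 2.92, SE 0.30). Bcas1, known from oligodendrocytes that have begun to make myelin, had 9941, 5477, 7235 and 11980 CPM against 835.7, 213.8 and 269.0 CPM (log2 difference 4.39, SE 0.56). Counting ignored strand, and Bcas1 and Qdpr each overlap a gene on the other strand. Other genes named here do so too, among them Aktip, Pea15a, S100b, Rcan2, Sri, Cnp and Ptprd.

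The others described here were not genes of the sheath list. Aktip, an adaptor of vesicle transport, had 1311 to 4200 against 115.9 to 531.6 CPM. The phosphoprotein Pea15a had 3667 to 9525 against 590.0 to 662.0 CPM. The calcium-binding protein S100b had 936.1 to 2574 against 186.0 to 281.8 CPM. The calcineurin regulator Rcan2 had log2 differences of 3.48, 3.99 and 5.54 within mock, aversive and appetitive libraries. For sorcin (Sri), which binds calcium, the fitted difference was 2.58, and for tropomodulin 2 (Tmod2), which caps actin filaments, 2.30. Each of these genes was higher in the Mbp-high libraries within all 3 treatments, which follows from their sets not overlapping and adds no support.

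With the log2 level of Mbp as a continuous term in place of the sets, edgeR called 3 genes. Mobp changed by 0.96 (SE 0.055, adjusted p = 0.00172 by edgeR) for each unit of log2 Mbp, Plekhb1 by 0.94 (SE 0.079, adjusted p = 0.0109) and Bcas1 by 1.03 (SE 0.077, adjusted p = 0.0062). The Mbp term was not scaled by TMM while the genes were, so a slope of 1 does not mean exact proportion. On the shared TMM scale, the log2 differences within mock, aversive and appetitive libraries were 3.14, 4.84 and 4.85 for Mobp. For Mbp they were 3.53, 5.16 and 6.22. Fth1 had a slope of 0.68 (SE 0.084, adjusted p = 0.0734 by edgeR), which missed the threshold. For Mag the slope was -0.12 (SE 0.10) and for Cnp -0.02 (SE 0.073), where 0 would be flat. The level of Mbp also formed the sets, so this term is no independent check of them.

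**Figure D4:**
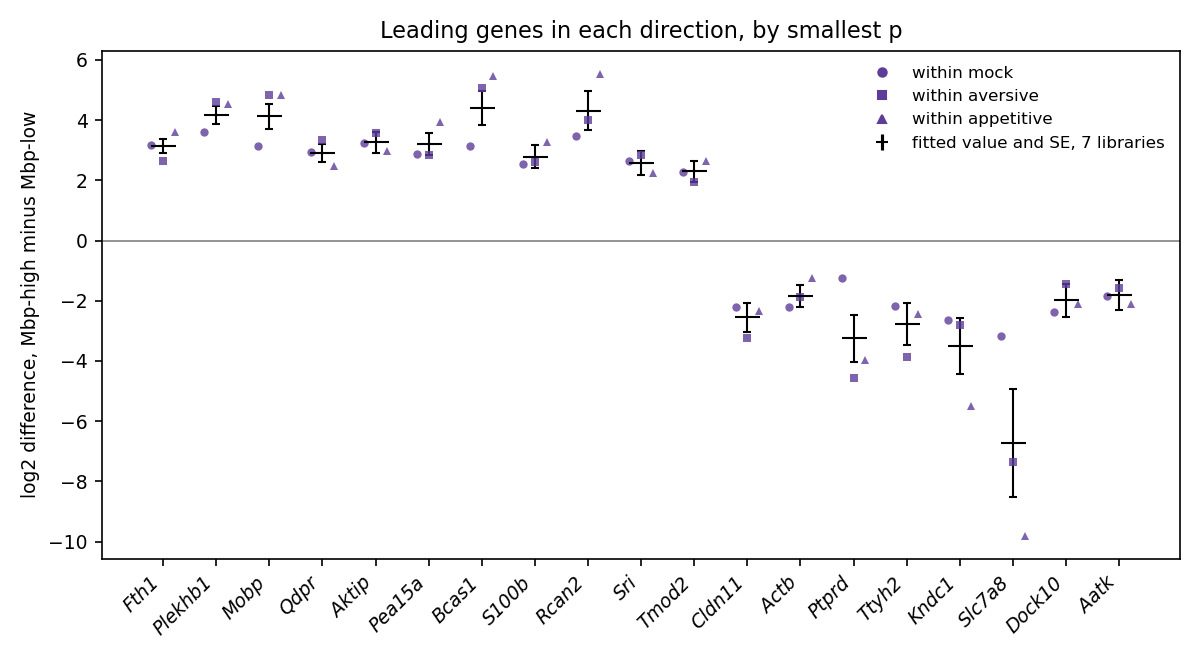
Log2 difference, Mbp-high minus Mbp-low (y), for 11 of the 12 genes with the smallest p in the higher direction and 8 of the 12 in the lower direction (x): black bars give the fitted value and its SE over 7 libraries, and purple symbols the difference within each treatment. All symbols of a gene lie on the same side of 0, which for every gene but Cldn11 follows from sets that do not overlap. Predicted genes near 0 counts were left out.

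No gene was called lower. The leading lower gene after Cldn11 was Actb, the cytoplasmic beta-actin, at 411.8, 485.4, 380.4 and 298.9 CPM in the Mbp-high libraries and 2062, 1385 and 716.7 CPM in the Mbp-low ones. The sets did not overlap, with a log2 difference of -1.83 (SE 0.36, adjusted p = 0.65 by edgeR). Cells can carry beta-actin mRNA to their processes, and any part of that in these levels was not tested. Actb has many processed copies, so its counts are uncertain too.

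The synaptic receptor phosphatase Ptprd had 19.7 to 148.3 CPM against 305.4 to 1696 CPM, a log2 difference of -3.25 (SE 0.79). Ttyh2, of a family of anion channels, had 5.72 to 49.7 against 83.3 to 257.4 CPM, and Kndc1, a guanine nucleotide exchange factor, 2.36 to 27.9 against 105.5 to 196.7 CPM. Slc7a8, a transporter of neutral amino acids, had 11.6 and 24.0 CPM in mock 1 and mock 2 but only 6 counts in aversive 1 and 1 count in appetitive 1, against 56.2 to 149.4 CPM in the Mbp-low libraries. Dock10 and Aatk had log2 differences of -1.98 (SE 0.55) and -1.82 (SE 0.50), and no adjusted p in this direction was under 0.615. The other 4 of the leading 12 were predicted genes with at most 2 counts in any Mbp-high library, which passed the filter through the Mbp-low libraries alone, so their place in this order supports nothing.

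The list of regulators of the oligodendrocyte lineage held no called gene. All 29 genes of that list were tested: 7 had positive and 22 negative log2 differences, 0 were called, and the median was -0.678, against -0.343 for all genes. Sets that did not overlap were found for 1 member in each direction, which is near the share over all genes (2.78% higher and 4.1% lower). The lower one was Sox10, at 41.7 to 113.2 CPM in the Mbp-high and 122.0 to 362.4 CPM in the Mbp-low libraries (log2 difference -1.20, SE 0.58). The higher one was Qdpr. Enpp2 (autotaxin), a lysophospholipase, had a log2 difference of -0.80 (SE 0.60), and carbonic anhydrase 2 (Car2) one of -0.28 (SE 0.45). Olig1 was at 231.7 to 478.8 against 317.9 to 777.7 CPM, and Myrf, the factor that switches on myelin genes, at 1.58 to 170.1 against 79.9 to 298.3 CPM. Both overlapped.

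The lists for making myelin lipid held no called gene in either direction. For cholesterol synthesis, 22 genes were tested, 7 with positive and 15 with negative differences, with a median of -1.07 and 0 called. The methyl sterol oxidase Msmo1 was at 309.6 to 824.5 against 268.6 to 770.5 CPM, and the synthase Hmgcs1 at 242.9 to 403.9 against 189.7 to 256.3 CPM. Sc5d leaned the other way, at 7.27 to 148.1 against 49.7 to 388.3 CPM (log2 difference -0.78, SE 1.4). The sets overlapped for each of these genes. Summed, the cholesterol list held 0.0715% to 0.211% of the counts other than Mbp in the Mbp-high libraries and 0.234% to 0.247% in the Mbp-low ones. These shares of raw counts did not overlap, and the difference was not tested. They were not scaled by TMM, unlike the CPM values. With factors of 1.01 for mock 1 and 1.54 for mock 3, the gap does not hold on the TMM scale. The 14 genes of glycosphingolipid synthesis had a median of -0.511, with 4 positive, 10 negative and 0 called. Within it, Ugt8a, which makes galactosylceramide, had a log2 difference of -0.50 (SE 0.41). Scd1, a desaturase, was the exception with 364.8 to 947.8 against 25.7 to 105.0 CPM (log2 difference 3.35, SE 0.64, adjusted p = 0.615 by edgeR), while its relative Scd2 had -0.61 (SE 0.50). The median of all tested genes was -0.343.

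The list of oligodendrocyte precursors held 0.649% to 1.16% of the counts other than Mbp in the Mbp-high libraries and 0.0903% to 0.233% in the Mbp-low ones. In the Mbp-high libraries Bcas1 gave most of this. The median log2 difference of its 15 genes was -2.27, with 6 positive and 9 negative, and it turned positive where 10 counts were demanded in every library. Pdgfra, the receptor that defines these cells, had 20.6 and 11.0 CPM in mock 1 and mock 2, 8.33 in mock 3, and at most 3 counts in each of the aversive and appetitive libraries. Gpr17 had 0 counts in aversive 1 and appetitive 1.

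**Figure D5:**
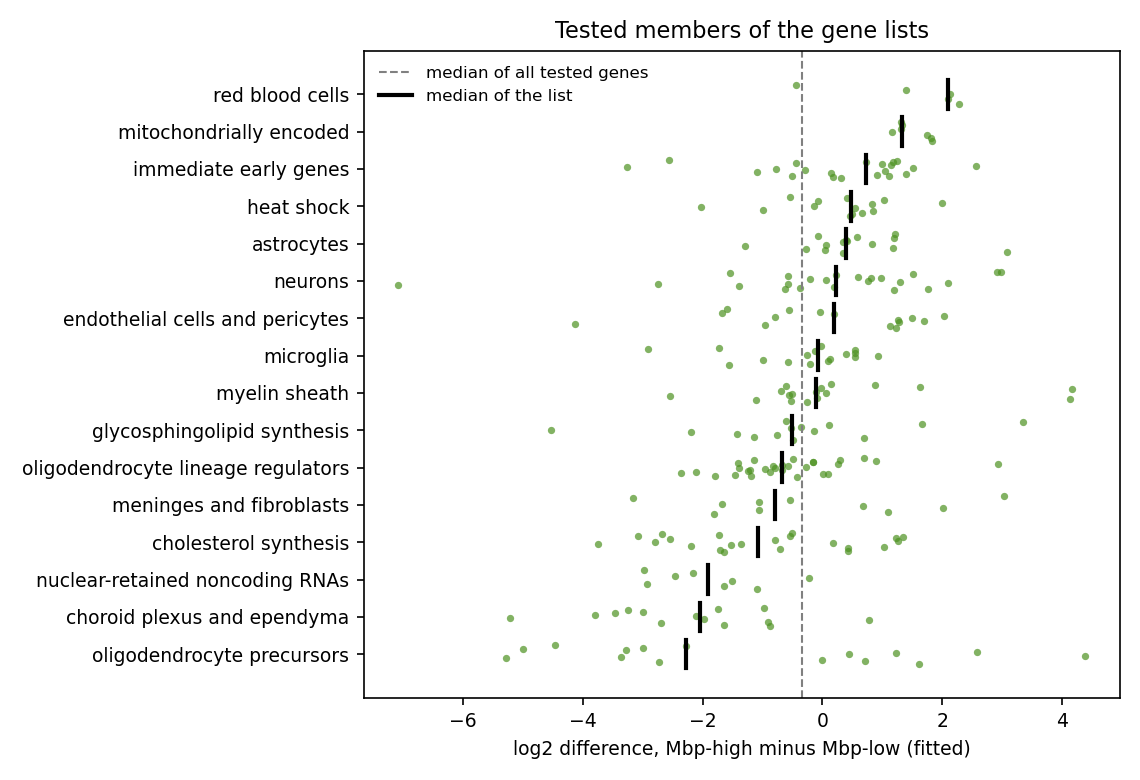
Fitted log2 difference, Mbp-high minus Mbp-low (x), of each tested member (points) of the 16 gene lists (y), with the list medians (black) and the median of all 17208 tested genes, -0.343 (dashed). The lists run from the oligodendrocyte precursors at -2.27 to the red blood cells at 2.10.

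Mitochondrial RNA and nuclear noncoding RNA had medians of opposite sign. Of the 13 mitochondrially encoded genes, 7 passed the filter, all with a positive difference and an unadjusted p under 0.05, where 1.98% of all genes were higher at that level; none passed the adjusted threshold and none had sets that did not overlap. Their median was 1.34. The counts of these genes need not vary independently, so the 7 are not separate results. Cytochrome b (mt-Cytb) had 10500, 10880, 22670 and 33250 CPM in the Mbp-high libraries and 4338, 17430 and 7003 CPM in the Mbp-low ones, with aversive 3 above mock 1 and mock 2. The log2 difference was 1.31 (SE 0.34, adjusted p = 0.959 by edgeR). The ribosomal RNA mt-Rnr2 had overlapping sets, at 67830 CPM in aversive 3 and 2320 CPM in appetitive 2. Mitochondrial genes have copies in the nuclear genome, which makes their counts uncertain.

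Among the 10 noncoding RNAs kept in the nucleus, 8 were tested, and all 8 had a negative difference, 2 with an unadjusted p under 0.05, where 1.91% of all genes were lower at that level, and the median was -1.90. Neat1, the scaffold of paraspeckles, had 60.6, 64.7, 109.7 and 89.3 CPM against 116.6, 434.3 and 406.6 CPM, and the sets did not overlap (log2 difference -1.64, SE 0.56). Malat1, a nuclear speckle RNA, had 613.3 to 2968 against 955.7 to 10140 CPM (log2 difference -1.09, SE 0.49), with an overlap at mock 3. Meg3 had 2.88 to 28.1 against 34.6 to 437.2 CPM. The median of the mitochondrial list stayed positive under the 20 settings. None of the genes of either list passed the adjusted threshold (smallest adjusted p 0.852 for the mitochondrial list and 0.959 for the nuclear one, edgeR).

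Markers of neurons, the cells that the c-Fos label is chiefly used for, were low and overlapped in their summed share. The 25 genes of the neuron list held 0.0426% to 0.117% of the counts other than Mbp in the Mbp-high libraries and 0.0406% to 0.190% in the Mbp-low ones. Rbfox3 (NeuN) was at 1.31 to 39.6 against 0.116 to 19.0 CPM and the glutamate transporter Slc17a7 at 0.788 to 30.8 against 0.695 to 30.6 CPM. The 23 tested genes had a median log2 difference of 0.228, with 14 positive, and its sign changed in 4 settings. The synaptic protein Snap25 had 127.6 to 646.2 against 43.1 to 170.3 CPM, and Nrgn 53.6 to 576.1 against 16.1 to 177.8 CPM. The AMPA receptor subunit Gria2 leaned the other way, at 34.1 to 228.1 against 95.3 to 656.2 CPM (log2 difference -0.58, SE 1.04). All 3 overlapped.

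Lists of other cell types held no called gene. The astrocyte list had a median of 0.402 with 12 of 15 genes positive and a changed sign in 3 settings; its member Aldoc was at 1899 to 5906 against 951.1 to 1775 CPM, without overlap (log2 difference 1.18, SE 0.45, adjusted p = 0.959 by edgeR). The other astrocyte genes named by rule overlapped, the glutamate transporter Slc1a3 with a log2 difference of -0.28 (SE 0.60) and clusterin (Clu) with 0.34 (SE 0.43), as did the list's summed share of counts, at 0.548% to 2.52% against 0.672% to 1.47%. The microglia list had a median of -0.08, with 0.252% to 0.974% of counts against 0.189% to 1.99%, the top value being in mock 3. The median for endothelial cells and pericytes was 0.19, and that for meninges and fibroblasts -0.795. The sign of the median changed in 8 of 20 settings for microglia, 4 of 20 for endothelial cells and pericytes, and 4 of 19 for meninges and fibroblasts. Of the 14 genes of choroid plexus and ependyma 13 had negative differences, with a median of -2.04 and 0 called, yet the highest share, 1.35%, was in aversive 1, an Mbp-high library. Ttr, the thyroid hormone carrier of that epithelium, had 949.0 to 14930 against 3084 to 8078 CPM. The part of these cells in the results above was not tested.

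Of the 5 red blood cell genes, 4 had positive differences, with a median of 2.10 and 0 called. The beta-globin Hbb-bs had 241.0, 1526, 605.7 and 419.7 CPM in the Mbp-high libraries and 250.8, 143.1 and 68.5 CPM in the Mbp-low ones, overlapping at mock 1 and mock 3. The immediate early genes, which activity and dissociation both induce, had a median of 0.725 over 21 tested genes, 14 of them positive and 0 called. Fos was at 502.1 to 1788 against 173.3 to 1692 CPM, and Atf3 at 220.9 to 1236 against 114.3 to 719.3 CPM. The 14 heat shock genes had a median of 0.476, whose sign changed in 2 of 20 settings, and Hsp90ab1 was at 913.3 to 1713 against 723.0 to 1347 CPM. The sets overlapped for each of these 4 genes.

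Values per library were compared too. The 10 leading genes other than Mbp held 25.6% ± 5.27 (SD, n = 4) of the remaining counts there and 13.5% ± 4.79 (SD, n = 3) in the Mbp-low libraries, and the sets did not overlap. An exact permutation test over the 35 arrangements of the libraries gave p = 0.057, two-sided, which is the smallest p that this design allows, and an adjusted p of 0.285 over 5 library measures. Mobp came directly after Mbp in mock 1, mock 2 and aversive 1, with 5.14% to 7.57% of all counts, and Fth1 in appetitive 1 with 6.38%. The number of genes with at least 1 count was 18710 ± 4018 (SD, n = 4) in Mbp-high and 23250 ± 8161 (SD, n = 3) in Mbp-low libraries, which overlapped (exact permutation p = 0.343, and 0.571 after thinning all libraries to equal depth).

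The genes whose sets did not overlap are described next, with no test. The share of the higher ones, 2.78%, is near 1 in 35, so many of them may have no tie to Mbp. The 478 higher genes were protein-coding in 91.8% of cases and pseudogenes in 2.51%, with a median mean level of 78.3 CPM, where all tested genes were protein-coding in 83.4% and pseudogenes in 5.47%, with a median of 12.9 CPM. The 705 lower genes were protein-coding in 64.3% and pseudogenes in 25.2%, with a median of 11.7 CPM. These numbers moved with the scaling: by library size alone 246 genes lay wholly higher and 1285 wholly lower. They moved with the filter too: with at least 10 counts in every library, 265 lay wholly higher and 269 wholly lower. A gene near 0 counts in the Mbp-high libraries can pass the main filter through the Mbp-low ones and so lie wholly lower. How far such genes account for the types of the 705 was not tested. The 478 higher genes held 25.0% to 35.1% of the counts other than Mbp in the Mbp-high libraries and 5.30% to 8.46% in the Mbp-low ones, values that the choice of the genes fixes in direction.

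The neutral libraries resembled the Mbp-low ones in Mbp share but not in all else. Normalised together with the others, they had 4812, 2268 and 1462 CPM of Mobp and 110.2, 1426 and 88.4 CPM of Mag, so Mag was highest in neutral 2 and Mobp in neutral 1. Cldn11 was at 1.58, 28.4 and 1.88 CPM, with Mog at 63.9, 774.7 and 44.2 CPM. Genes of the choroid plexus and ependyma list made up 14.5%, 2.87% and 12.3% of their counts other than Mbp, against 0.0653% to 1.35% in the 7 other libraries. With another kit and read length, their differences from the other libraries cannot be told apart from the method.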

How the data were processed

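Reads were cut to 40 bp by the authors, aligned to mm10 by STAR and assigned to Ensembl genes by featureCounts, without strand, and the raw counts of 53379 genes were deposited for each library, as the labels and the methods state. No tool versions are given in the sources used here. Mbp shares were computed from these counts. Mbp was then removed, and genes kept by filterByExpr went into edgeR 4.0.16 under R 4.3.3 (TMM scaling, quasi-likelihood test, terms for treatment and Mbp set, two-sided, Benjamini-Hochberg adjustment over 17208 genes). The fit had 3 residual degrees of freedom, a prior of 4.66 and a common dispersion of 1.32. CPM of neutral libraries came from a fit of all 10 libraries. Positions and types came from GENCODE M21, matched to 53274 of the identifiers, 159 of which shared a symbol. The steps were tested on simulated data. The exact tests used scipy 1.17.1, the tables pandas 2.3.3 and numpy 2.4.6 under Python 3.11.15, and the plots matplotlib 3.10.9. Promoter windows came from RefSeq.

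The division of libraries, the 16 gene lists (257 genes) and the tests were chosen with earlier results of these data known. Genes were named by rule: Mbp, the 3 members of each list with the highest mean CPM (5 for the myelin sheath), the 12 tested genes with the smallest p in each direction, and the 5 genes with the largest share of counts in each library. Mag, Mog, Mal, Pllp, Opalin, Tspan2, Ermn, Ndrg1, Cd9, Pmp22, Sox10, Olig1, Myrf, Scd1, Pdgfra, Gpr17, Rbfox3, Slc17a7, Ftl1 and Trf were chosen after their values were seen. Some genes that the rule names are not reported here and enter only totals. Alternatives were DESeq2 1.42.0, other scalings, filters, covariates and sets of libraries, a continuous Mbp term, and, added after seeing the data, the count of genes whose sets do not overlap. The replicate numbers were checked as pairs by the correlation of deviations, which ran from 0.002 to 0.161 for same-numbered libraries of the same set, was -0.075 for the remaining same-numbered pair, and ran from 0.075 to 0.161 for differently numbered libraries of the same set. Most same-numbered libraries share their set, so this check cannot separate number from set, and the numbers were not treated as pairs.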

Additional observations from a re-analysis of the deposited data

Results flagged for a closer look

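Single libraries stood apart from the 3 others of the Mbp-high set, by a test of the gap to the nearest library, in the following values. Such a test marks about 1 in 20 sets by chance. The summed share of the endothelial and pericyte list was 0.9665% of the counts other than Mbp in mock 2, that of the red blood cell list 0.2692% in mock 2, and that of the choroid plexus and ependyma list 1.35% in aversive 1. Appetitive 1 had 4200 CPM of Aktip, 3105 CPM of Tmod2 and 179.6 CPM of Cldn11, each above the rest of its set. The predicted genes Gm19582, Gm42466 and Gm37880 had 0.04397, 0.08793 and 0.04397 CPM in mock 1, from 1 or 2 counts, and 0 in the 3 others. Where the 3 others have 0, a single count is enough for the test to mark a library, so these marks show nothing.

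The ratio of Mbp-high to Mbp-low libraries in summed list share went in opposite directions between treatments for 2 lists, and the difference between the treatments was not tested. For neurons the appetitive ratio was 2.62, while aversive 1 had less than aversive 3. For microglia the appetitive ratio was 2.199 and the aversive one above 1, while both Mbp-high mock libraries had less than mock 3.

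In the neutral libraries, which the comparison did not use, the choroid plexus and ependyma list held at least 2.872% of the counts other than Mbp, above every mock library.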

How the results depend on the processing

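The number of called genes depended strongly on the processing. Fth1, Plekhb1, Mobp, Qdpr and Bcas1 were higher in the Mbp-high libraries under all 20 alternatives. They were chosen for a small p in these libraries and their sets did not overlap, so another sign was hardly possible. Fth1 was called in 10 of the alternatives, Plekhb1 in 9 and Mobp in 8. Against 2 higher and 0 lower calls, DESeq2's Wald test gave 153 and 714, no filter on low counts 94 and 7, and DESeq2's size factors in edgeR 5 higher. Leaving out each library in turn gave 0 to 12 higher calls. There were 0 calls with at least 10 counts in every library, without the treatment term, in mock and aversive libraries alone and in mock and appetitive libraries alone, and 1 call with all 10 libraries or in aversive and appetitive libraries alone. A threshold of 0.1 on the adjusted p gave 5 calls. Scalings moved the median of all genes, from -0.343 to -0.862 by library size alone.

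The replicate block gave 285 higher and 264 lower calls with 1 residual degree of freedom. The numbers nearly coincide with the sets, so the block and the sets can hardly be told apart, and the check of the numbers could not separate them.

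Genes whose sets did not overlap numbered 478 higher and 705 lower. By library size alone they were 246 and 1285, with at least 10 counts in every library 265 and 269, and with no filter 1142 lower. With fewer libraries, which overlap less easily by construction, they were 1554 and 2545 in mock and aversive, 1799 and 2468 in aversive and appetitive, and 1193 and 1406 in mock and appetitive libraries, and 598 to 1379 and 1029 to 2862 without each library in turn. The difference in the number of genes detected per library ran from -8836 to -715 without each library in turn, against -4540. For these changes the cause was not tested.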
